A study of Ovis aries with 40 samples.

Results

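The genes described here are 10 genes of glucose uptake and glycolysis in the developing sheep lung: SLC2A1, HK2, PFKL, ALDOA, ALDOC, TPI1, PGK1, ENO1, LDHA and PDK1. They were taken by gene symbol from count tables of 24478 genes, each symbol matched 1 row, and all 10 had enough reads to be tested in every comparison. Messenger RNA was sequenced from proximal and distal lung of wild type (WT) sheep and of sheep without a working CFTR gene (CFTR-/-), the gene that is mutated in cystic fibrosis (CF). Tissue came from fetuses of 4 ages, days 65, 80, 100 and 120, and from lambs at term, labelled day 147 and described as birth. Each of the 20 groups of genotype, region and time held 2 libraries labelled as replicates, 40 libraries in all. The comparisons ask how the lung transcriptome develops and whether it differs without CFTR.

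The sheep were American Romney. CFTR-/- animals were clones made by somatic cell nuclear transfer from 1 line of male fetal fibroblasts in which exon 2 of CFTR had been targeted, and WT animals were bred conventionally. The CFTR genotype therefore cannot be told apart from cloning or from the 1 male donor line. The sex of the WT animals is not given here. WT term lambs were born naturally, and the manner of birth of CFTR-/- term lambs was not given in the sources used here. With 2 libraries a group, p-values rest on the spread between very few libraries. Both WT day 100 libraries of a region carry 1 animal label, and WT day 65 replicate 2 shares its label with CFTR-/- day 100 replicate 2. These animals may not be independent.

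Glycolysis breaks glucose down to pyruvate in the cytosol and yields ATP without oxygen. SLC2A1 (GLUT1) carries glucose into the cell, HK2 and PFKL add the phosphates that commit it to breakdown, the aldolases split the sugar, and TPI1, PGK1 and ENO1 carry the triose phosphates towards pyruvate. LDHA turns pyruvate into lactate, PDK1 holds pyruvate back from the mitochondria by inhibiting pyruvate dehydrogenase, and many of these genes are textbook targets of the hypoxia-inducible factors (HIFs). In the fetal lung glucose also feeds glycogen, a store used for surfactant lipids in alveolar type 2 cells.

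The genes are spread over several autosomes and the X chromosome of the Oar_v4.0 assembly. SLC2A1 lies at chr1:17138490-17166505 on the minus strand. The hexose enzymes HK2 and PFKL lie at chr3:96460676-96527149 and chr1:262240532-262261989, both on the plus strand. The aldolase genes ALDOA and ALDOC lie at chr24:26219061-26224700 and chr11:19619990-19623581, both on the minus strand. TPI1 lies at chr3:207303346-207305235 on the minus strand, PGK1 at chrX:65652984-65675630 on the plus strand and ENO1 at chr12:42607708-42622084 on the plus strand. LDHA and PDK1 lie at chr21:25576941-25588907 and chr2:136175612-136222187, both on the minus strand. Counts were made over exons. HK2 shares 22 exon bases with LOC106991065 on the opposite strand and ALDOA shares 66 with LOC105604728 on the same strand, so reads in those bases cannot be assigned with certainty.

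Counted reads per library ran from 24670355 to 43700012 in the 16 WT libraries before term and from 85773994 to 103139483 in the 16 CFTR-/- libraries before term, so before term depth and genotype moved together. The 8 term libraries had between 115937437 and 126749480, so depth was also higher at term than before it, most of all in WT lung. Levels are given as CPM, a gene's count scaled to a common library total, with TMM factors, which correct for differences in library composition and lay between 0.751 and 1.19. CFTR was between 11.02 and 43.8 CPM in WT lung before term (median 29.1) and between 4.99 and 34.9 in CFTR-/- lung (median 19.6), so some mRNA of the targeted gene was counted in every library. At term it was at 9.58 and 14.8 CPM in WT proximal lung, 3.89 and 5.14 in CFTR-/- proximal lung, 10.6 and 12.8 in WT distal lung, and 3.65 and 4.86 in CFTR-/- distal lung. The labels call the tissue epithelial, but endothelial markers summed to between 942 and 2249 CPM in WT libraries before term, so these are whole lung tissue values, in which fewer cells of a type and less RNA per cell cannot be told apart. Both libraries of CFTR-/- term lamb 2 stood apart from the other 38 in the genes described here, and the term values of the 10 genes are given with and without them. CFTR-/- proximal day 120 replicate 2 also stood apart, with the lowest mitochondrial share of the 40 libraries (0.942% of counts), the lowest TMM factor before term (0.851), and alveolar type 2 and secretory airway markers at 21302 and 3507 CPM against 8662 and 106 in replicate 1.

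A gene was called differentially expressed (DEG) at an adjusted p of 0.001 or less with a log2 fold change of 0.58 or more either way, the study's own limits, in edgeR's quasi-likelihood test, with p-values adjusted by Benjamini and Hochberg's method across the tested genes. A looser limit of adjusted p 0.05 with the same fold limit is given beside it. In what follows, "rose" and "fell" mean that the looser limit was passed. Where 1 of the 2 libraries of a group is left out, the spread comes from the other groups of the fit and the lone library is assumed to vary like them, so such a p says nothing of the spread within that group.

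**Figure D1:**
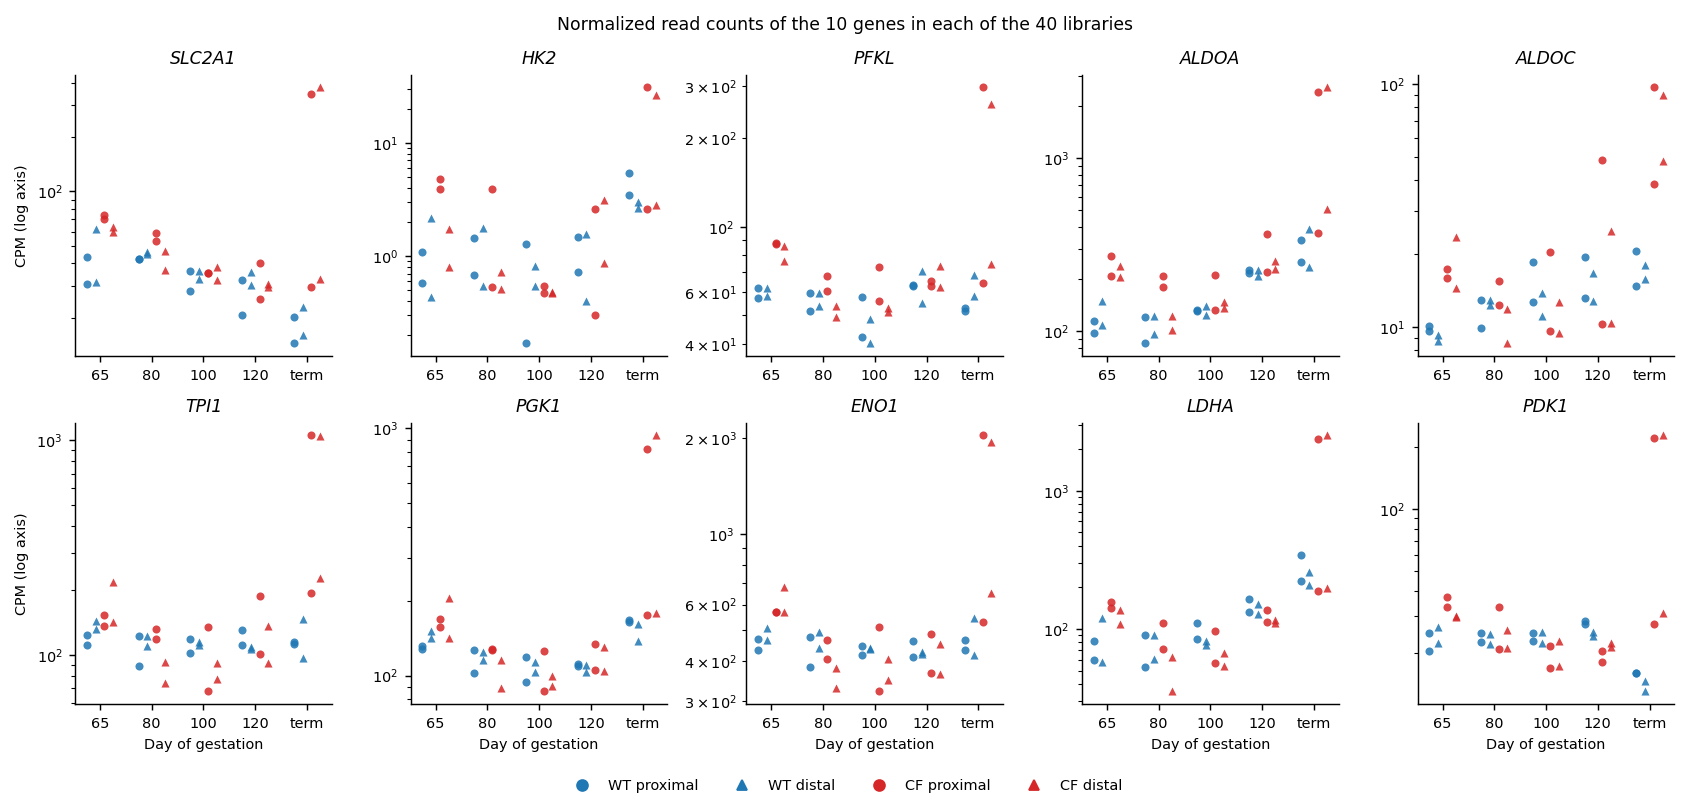
TMM-scaled CPM (log axis) of the 10 genes in each of the 40 libraries against time point, WT in blue and CFTR-/- (CF) in red, circles for proximal and triangles for distal lung. Points are single libraries, and the 2 libraries of CFTR-/- term lamb 2 are the highest in every panel.

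Per kilobase of exon, ENO1, which makes phosphoenolpyruvate, had the highest level of the 10 genes in WT proximal lung at day 65, at 233 ± 13.3 CPM per kb (SD, n = 2). TPI1 followed at 129 ± 9.72 and PGK1 at 74.5 ± 1.33 CPM per kb. ALDOA at 58.3 ± 6.24 and LDHA at 37.4 ± 8.23 CPM per kb came next. These steps were larger than the spread between the libraries. ALDOC and PDK1, at 5.98 ± 0.182 and 5.81 ± 0.798 CPM per kb, did not differ beyond their spread. HK2, the inducible hexokinase, was lowest at 0.233 ± 0.0998 CPM per kb. At term in WT proximal lung ENO1 was at 232 ± 11.3 CPM per kb and still first, followed by ALDOA at 161 ± 33.3, LDHA at 149 ± 45.5 and TPI1 at 124 ± 1.59 CPM per kb. The spread of LDHA overlapped the values of both ALDOA and TPI1, and LDHA was at 117 CPM per kb in WT proximal term replicate 1, so the order of these genes is not settled. SLC2A1, at 14.9 ± 3.58 CPM per kb at day 65, was at 6.97 ± 1.67 CPM per kb at term.

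In WT lung the genes did not move as 1 block between day 65 and term. Between neighbouring days before term none of the 10 passed the looser limit by edgeR. The share of all genes that did was 0.011%, 1.87% and 2.57% in proximal lung and 0.0164%, 0.996% and 2.44% in distal lung, for the steps to day 80, 100 and 120, while 0, 0 and 2 of the 10 in proximal and 2, 0 and 3 in distal lung had an unadjusted p under 0.05. Of all genes 5.5%, 14.8% and 16.1% had such a p in proximal and 3.99%, 12.7% and 17.2% in distal lung. DESeq2 gave 1, at the step to day 120 in proximal lung, where 2.59% of all genes were higher by the same test. LDHA and ALDOA, which act late and midway in the pathway, had higher levels from day 120 on, PDK1 fell at term, and most of the triose phosphate enzymes stayed near their starting level. In WT proximal lung LDHA was at 81.7 and 59.7 CPM at day 65, 52.9 and 90.2 at day 80, 111 and 84.2 at day 100, 133 and 166 at day 120, and 222 and 343 at term. The day 65 and day 120 libraries did not overlap, nor did those of day 120 and term. LDHA rose by 1.07 on the log2 scale from day 65 to day 120 (SE 0.29, adjusted p 0.0307) and by 0.92 from day 120 to term (SE 0.29, adjusted p 0.0461). In WT distal lung LDHA was at 120 and 57.7 CPM at day 65, 128 and 151 at day 120, and 209 and 259 at term. The step from day 120 to term was 0.73 on the log2 scale there and did not pass the looser limit (adjusted p 0.122).

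ALDOA, the main aldolase, was at 114 and 98.3 CPM at day 65 in WT proximal lung, at 218 and 226 at day 120, and at 252 and 337 at term. It rose by 1.05 on the log2 scale from day 65 to day 120 (SE 0.19, adjusted p 0.00424). ALDOA and LDHA were the 2 of the 10 genes that rose over this interval in proximal lung at the looser limit, against 9.17% of all genes tested, and none of the 10 was a DEG, against 3.17% of all genes (3 of the 10 had an unadjusted p under 0.05, against 33% of all genes, and DESeq2 called 1 DEG, against 10%). The count went from 2 to 1 when any 1 of the 4 libraries, WT proximal day 65 replicate 1 or 2 or day 120 replicate 1 or 2, was left out. In each case LDHA was the gene lost, with an adjusted p between 0.0513 and 0.172. Over the same interval alveolar type 2 markers in WT proximal lung summed to 662 and 1017 and then 5656 and 6969 CPM, alveolar type 1 markers to 258 and 280 and then 1562 and 1114, and cell cycle genes to 1720 and 1680 and then 406 and 378, and their part in the change was not tested. In WT distal lung ALDOA was at 149 and 109 CPM at day 65 and 209 and 228 at day 120, a log2 difference of 0.75 that missed the looser limit (adjusted p 0.0774).

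ALDOC, the aldolase best known from brain, was at 9.26 and 8.78 CPM at day 65 in WT distal lung and at 12.8 and 16.7 at day 120. It rose by 0.70 on the log2 scale (SE 0.21, adjusted p 0.0474), the only 1 of the 10 genes to do so in distal lung, against 8.97% of all genes tested, and none was a DEG, against 1.56% (edgeR; 3 of the 10 had an unadjusted p under 0.05, against 32% of all genes). This ALDOC call was lost without WT distal day 65 replicate 1 or 2 or day 120 replicate 1 or 2 (adjusted p 0.11, 0.162, 0.0658 and 0.259), and with the replicate number as a block (adjusted p 0.0571). It was also lost with no filter on low counts (adjusted p 0.0615). PGK1 was at 151 and 142 CPM at day 65 in WT distal lung and at 110 and 103 at day 120, a log2 difference of -0.48 (adjusted p 0.0304) that was under the fold limit.

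From day 120 to term PDK1, the pyruvate dehydrogenase kinase, had lower values in both regions. PDK1 was at 27.4 and 28.4 CPM at day 120 in WT proximal lung and 16 and 15.9 at term. In WT distal lung it was at 24.1 and 25.2 CPM at day 120 and 13 and 14.5 at term. The term libraries were below the day 120 libraries in both regions. PDK1 fell by 0.81 on the log2 scale in proximal lung (SE 0.14, adjusted p 0.00432) and by 0.86 in distal lung (SE 0.16, adjusted p 0.00668). It was the 1 gene of the 10 that fell in each region, against 8.78% of all genes in proximal and 10.5% in distal lung.

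PGK1, which makes the first ATP of the pathway, was at 112 and 109 CPM at day 120 in WT proximal lung and 167 and 165 at term. PGK1 rose by 0.59 on the log2 scale (SE 0.13, adjusted p 0.0128), just past the fold limit. It came out just under that limit with DESeq2 and with RLE scaling. PGK1 and LDHA were the 2 that rose in WT proximal lung, against 11.3% of all genes, and with PDK1 they made 3 changed genes of the 10. With RLE scaling the count was 1. The count was 1, PDK1, without WT proximal day 120 replicate 1 or 2 or term replicate 2. Cell type markers moved over the same step, and their part in these changes was not tested. In WT proximal lung macrophage markers summed to 131 and 107 CPM at day 120 and 1258 and 1738 at term, alveolar type 2 markers to 5656 and 6969 and then 22599 and 28523, and erythroid markers to 154 and 96.6 and then 12.9 and 9.38. Distally macrophage markers summed to 132 and 118 CPM and then 1027 and 2134, alveolar type 2 markers to 3634 and 4572 and then 18186 and 26947, and erythroid markers to 193 and 106 and then 12.2 and 11.8. In WT distal lung PGK1 was at 138 and 161 CPM at term, a log2 difference from day 120 of 0.47 (adjusted p 0.0246) that was under the fold limit. None of the 10 rose there, against 11.8% of all genes (edgeR; with PDK1, 4 of the 10 had an unadjusted p under 0.05, against 39.4% of all genes). Without WT distal term replicate 1 the distal count was 3, with ALDOA and PGK1 rising beside PDK1. None of the 10 was a DEG from day 120 to term, against 2.14% of all genes in proximal and 1.15% in distal lung, and DESeq2 called 1 in each region, against 11.2% and 11.5%.

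SLC2A1 was at 43.5 and 30.8 CPM at day 65 in WT proximal lung, 42.2 and 42.4 at day 80, 28.3 and 36.1 at day 100, 32.5 and 20.8 at day 120, and 14.4 and 20.3 at term. Its term libraries were the lowest of the 10, but the day 120 to term difference of -0.62 on the log2 scale did not pass (adjusted p 0.123), nor did that of -0.78 in distal lung (adjusted p 0.0854). HK2 was low in WT lung before term, between 0.17 and 2.15 CPM. At term HK2 was at 3.45 and 5.41 CPM in proximal lung, a log2 difference from day 120 of 2.01 (adjusted p 0.102). PFKL, the liver type phosphofructokinase, stayed between 40.2 and 70.7 CPM in all 20 WT libraries. ENO1 stayed between 383 and 545 CPM and TPI1, the triose phosphate isomerase, between 88.7 and 147 CPM in the same libraries.

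LDHA is 1 of the 2 common lactate dehydrogenase subunits. LDHB, the other subunit, is best known from oxidative tissue. Per kilobase the ratio of LDHA to LDHB in WT proximal lung was 0.0844 ± 0.0231 at day 65, 0.19 ± 0.0288 at day 100, 0.312 ± 0.00473 at day 120 and 0.678 ± 0.211 at term (SD, n = 2). In WT distal lung the ratio was 0.105 ± 0.0702 at day 65, 0.313 ± 0.0253 at day 120 and 0.552 ± 0.0677 at term. LDHB moved the other way from LDHA. LDHB was at 508 and 550 CPM at day 65 in WT proximal lung and 270 and 330 at day 120, and it fell by 0.83 on the log2 scale (adjusted p 0.00176). In WT distal lung LDHB fell by 1.04 over the same interval (adjusted p 0.00978).

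**Figure D2:**
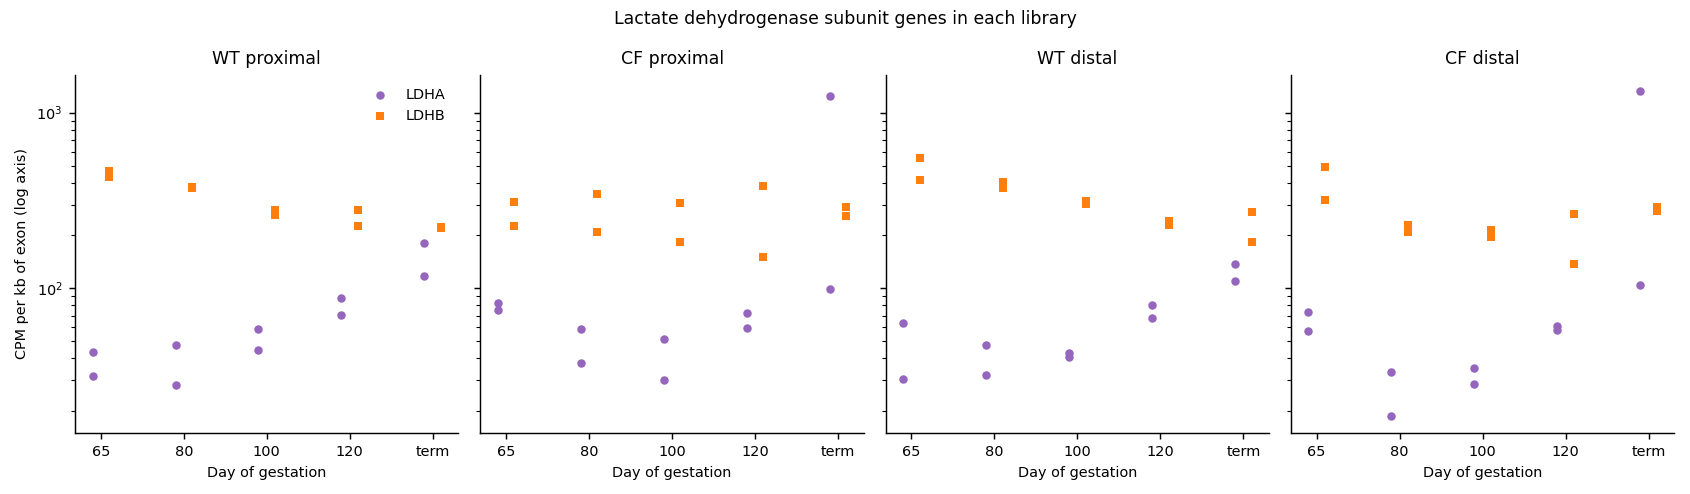
CPM per kilobase of exon (log axis) of LDHA (circles) and LDHB (squares) in each library against time point, 1 panel for each genotype (CF stands for CFTR-/-) and region. The LDHA points approach the LDHB points in WT lung at term and lie above them only in CFTR-/- term lamb 2, whose ratios were 4.86 and 4.81.

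Before term, no gene of the 10 differed between CFTR-/- and WT lung at any of the 4 days in either region at the looser limit, by edgeR or by DESeq2. The share of all genes that differed at that limit, from day 65 to day 120, was 0.167%, 0.0885%, 0.383% and 1.35% in proximal lung and 5.05%, 5.75%, 5.07% and 4.22% in distal lung. Over these 8 comparisons 1 of 80 tests had an unadjusted p under 0.05, that of ALDOC in distal lung at day 65. Of all genes between 10.6% and 17.1% had such a p in proximal and between 20.1% and 22.7% in distal lung. ALDOC was at 14.5 and 23.3 CPM there in CFTR-/- and at 9.26 and 8.78 in WT, a log2 difference of 1.08 (adjusted p 0.117). Averaged over the 4 days the differences were between -0.01 and 0.85 on the log2 scale in proximal lung (median 0.25, all genes 0.07) and between -0.21 and 0.27 in distal lung (median -0.02, all genes 0.03). None of the 10 was a DEG in this average, against 2.5% of all genes in proximal and 6.86% in distal lung. The smallest adjusted p was that of ALDOA in proximal lung, 0.087, at a log2 difference of 0.72 (SE 0.28). Of the other genes of glucose metabolism, SLC16A7 (MCT2), a carrier of lactate and pyruvate, and MPC2, a subunit of the mitochondrial pyruvate carrier, were DEGs in the distal average. Both were lower in CFTR-/- lung, by log2 differences of -0.67 (adjusted p 0.00078) and -0.77 (adjusted p 0.000452). Cell type markers were DEGs in the same average, and their part was not tested. Among them were EPCAM (epithelial, -0.67), ACTA2 and MYH11 (smooth muscle, 1.39 and 1.22) and VWF (endothelial, 1.21). With 1 of the 16 distal libraries before term left out, an alternative chosen after seeing the data, SLC16A7 stayed a DEG in 2 of 16 refits (highest adjusted p 0.00291) and MPC2 in 5 (highest adjusted p 0.00175). Without CFTR-/- proximal day 120 replicate 1, which leaves the replicate that stood apart, 2 of the 10 passed the looser limit in the proximal average (12.9% of all genes higher) and 1 at proximal day 120 (13.2%). Without replicate 2 none passed in either.

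Day 65 in proximal lung was the prenatal time at which the genotypes lay furthest apart in these genes. There SLC2A1 was at 70.1 and 74.0 CPM in CFTR-/- and 43.5 and 30.8 in WT lung. ALDOA was at 272 and 210 CPM against 114 and 98.3. LDHA was at 156 and 142 CPM against 81.7 and 59.7. Both CFTR-/- libraries were above both WT libraries for these genes, and for each of the 10, against 33.9% of all genes tested. Markers of other cell types also differed there, and their part in the difference was not tested. Smooth muscle markers summed to 1431 and 1166 CPM in CFTR-/- and 428 and 388 in WT lung. Markers of skeletal muscle, a tissue rich in ALDOA and LDHA, summed to 193 and 28.4 against 16.7 and 33.5. The latter overlapped, with only CFTR-/- replicate 1 above both WT libraries. Alveolar type 1 markers summed to 188 and 176 CPM against 258 and 280, and cell cycle genes to 1332 and 1404 against 1720 and 1680. The log2 differences ran from 0.30 for TPI1 to 2.39 for HK2 (median 0.70, all genes 0.06), and the smallest adjusted p was 0.412. In distal lung at day 65, 5 of the 10 genes lay above WT without overlap, namely PFKL, ALDOA, ALDOC, ENO1 and PDK1, against 28.3% of all genes.

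By day 80 the levels in CFTR-/- lung were lower. The day 80 libraries lay below the day 65 libraries without overlap for each of the 10 genes, against 16.2% of all genes in proximal and 34.7% in distal lung. SLC2A1 was at 53.5 and 58.6 CPM at day 80 in proximal lung and 36.9 and 46.7 in distal lung. LDHA was at 71.4 and 111 CPM in proximal and 35.3 and 62.8 in distal lung. Markers moved over this step too, and their part was not tested. Alveolar type 2 markers summed to 640 and 522 CPM at day 65 and 2056 and 2068 at day 80 in proximal lung. Distally they summed to 553 and 666 and then 1548 and 2168. Smooth muscle markers summed to 1431 and 1166 and then 1091 and 821 in proximal lung, and to 1307 and 1208 and then 1100 and 714 in distal lung. None of the 10 passed the looser limit in either region (edgeR; none had an unadjusted p under 0.05), and the smallest adjusted p was 0.312. The same held for the other steps before term in CFTR-/- lung: none passed from day 80 to 100, from day 100 to 120 or from day 65 to 120, and none had an unadjusted p under 0.05. The share of all genes that passed at these 4 steps was 0%, 0%, 0.0203% and 1.66% in proximal and 0%, 0%, 0.928% and 12.1% in distal lung, with day 65 to 80 given first. At day 100 in distal lung 5 of the 10 lay below WT without overlap, against 32.8% of all genes.

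At term the 10 genes were higher in CFTR-/- than in WT lung on average, and the 2 CFTR-/- lambs differed from each other far more than the WT lambs did. In lamb 2 each of the 10 was between 4.53 and 20.03 times the WT mean in proximal lung (median 7.60) and between 4.03 and 19.3 times the WT mean in distal lung (median 8.43). In lamb 1 the same ratio was between 0.589 and 2.20 (median 1.25) in proximal and between 0.843 and 2.88 (median 1.49) in distal lung. Over all genes with a WT mean of 1 CPM or more, the median ratio in lamb 2 was 0.928 (proximal) and 0.929 (distal), and 8.72% and 9.26% of those genes were at least 2 times as high as the WT mean.

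SLC2A1 at term was at 14.4 and 20.3 CPM in WT proximal lung, 29.6 in CFTR-/- lamb 1 and 348 in lamb 2. In distal lung SLC2A1 was at 16 and 23.0 CPM in WT, 32.7 in lamb 1 and 377 in lamb 2. Both lambs were above both WT lambs, lamb 1 by a small step and lamb 2 by a large one. The log2 difference was 3.44 in proximal (SE 0.73, adjusted p 0.0146) and 3.42 in distal lung (SE 0.70, adjusted p 0.00551). Without lamb 2 it was 0.75 in proximal (adjusted p 0.332) and 0.74 in distal lung (adjusted p 0.172).

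HK2 was at 3.45 and 5.41 CPM in WT proximal lung, 2.61 in lamb 1 and 30.8 in lamb 2. In distal lung HK2 was at 2.65 and 3.02 CPM in WT, 2.82 in lamb 1 and 26.2 in lamb 2. Lamb 1 lay below or within the WT values. HK2 did not pass in either region (log2 difference 2.38, SE 0.97, adjusted p 0.111 in distal lung), and without lamb 2 its difference was -0.79 in proximal (adjusted p 0.851) and -0.01 in distal lung (adjusted p 1). PFKL, which sets the pace of the pathway, was at 52.9 and 51.9 CPM in WT proximal lung, 64.5 in lamb 1 and 298 in lamb 2. In distal lung PFKL was at 58.3 and 68.8 CPM in WT, 74.9 in lamb 1 and 262 in lamb 2. PFKL was higher by 1.79 on the log2 scale in proximal (SE 0.45, adjusted p 0.0328) and 1.43 in distal lung (SE 0.36, adjusted p 0.0179). Without lamb 2 it did not pass, at 0.28 (adjusted p 0.64) and 0.23 (adjusted p 0.492).

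Of the aldolases, ALDOA was at 252 and 337 CPM in WT proximal lung, 373 in lamb 1 and 2428 in lamb 2. In distal lung ALDOA was at 234 and 390 CPM in WT, 507 in lamb 1 and 2574 in lamb 2, a log2 difference of 2.32 (SE 0.49, adjusted p 0.00657). Without lamb 2 ALDOA did not pass, at 0.32 in proximal (adjusted p 0.75) and 0.69 in distal lung (adjusted p 0.151). ALDOC was at 20.5 and 14.8 CPM in WT proximal lung, 38.8 in lamb 1 and 96.7 in lamb 2. ALDOC was the gene in which lamb 1 stood furthest above WT. In distal lung ALDOC was at 17.9 and 15.7 CPM in WT, 48.3 in lamb 1 and 89.8 in lamb 2, a log2 difference of 2.07 (SE 0.38, adjusted p 0.00315). Without lamb 2 the ALDOC difference was 1.52 in distal lung (adjusted p 0.0407) and 1.11 in proximal lung (adjusted p 0.491), with lamb 1 as the only CFTR-/- term library.

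Of the triose phosphate enzymes, TPI1 was at 113 and 115 CPM in WT proximal lung, 195 in lamb 1 and 1056 in lamb 2. TPI1 was higher by 2.46 on the log2 scale (SE 0.57, adjusted p 0.0210). PGK1 was at 167 and 165 CPM in WT, 175 in lamb 1 and 822 in lamb 2, a log2 difference of 1.59 that did not pass (adjusted p 0.0606). These genes kept the same order of lambs. ENO1 was at 434 and 465 CPM in WT, 531 in lamb 1 and 2034 in lamb 2, and its log2 difference of 1.51 did not pass (adjusted p 0.0560). In distal lung all of them passed the looser limit. PGK1 was higher by 1.92 there (SE 0.47, adjusted p 0.0150) and ENO1, whose ratio to WT in lamb 2 was the lowest of the 10, by 1.45 (SE 0.34, adjusted p 0.0116). Without lamb 2 none of these enzymes passed. TPI1 was then at 0.76 in proximal (adjusted p 0.397) and 0.90 in distal lung (adjusted p 0.0825), PGK1 at 0.05 (adjusted p 0.962) and 0.26 (adjusted p 0.529), and ENO1 at 0.22 (adjusted p 0.791) and 0.44 (adjusted p 0.247).

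LDHA showed the widest gap between the CFTR-/- lambs of the 10 genes, at 12.6 times as high in lamb 2 as in lamb 1 in proximal lung and 12.7 times in distal lung. LDHA was at 222 and 343 CPM in WT proximal lung, 188 in lamb 1 and 2367 in lamb 2. In distal lung LDHA was at 209 and 259 CPM in WT, 198 in lamb 1 and 2518 in lamb 2. Lamb 1 was below both WT lambs in both regions. The log2 difference was 2.18 in proximal (SE 0.74, adjusted p 0.102) and 2.56 in distal lung (SE 0.72, adjusted p 0.0281), and without lamb 2 it turned to -0.61 in proximal (adjusted p 0.591) and -0.25 in distal lung (adjusted p 0.75). PDK1 was at 16 and 15.9 CPM in WT proximal lung, 27.4 in lamb 1 and 222 in lamb 2. In distal lung PDK1 was at 13 and 14.5 CPM in WT, 31.2 in lamb 1 and 228 in lamb 2. PDK1 was higher by 2.96 in proximal (SE 0.62, adjusted p 0.0134) and 3.26 in distal lung (SE 0.57, adjusted p 0.00212), and without lamb 2 by 1.18 in distal lung (adjusted p 0.00484), with 0.76 in proximal lung (adjusted p 0.218).

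**Figure D3:**
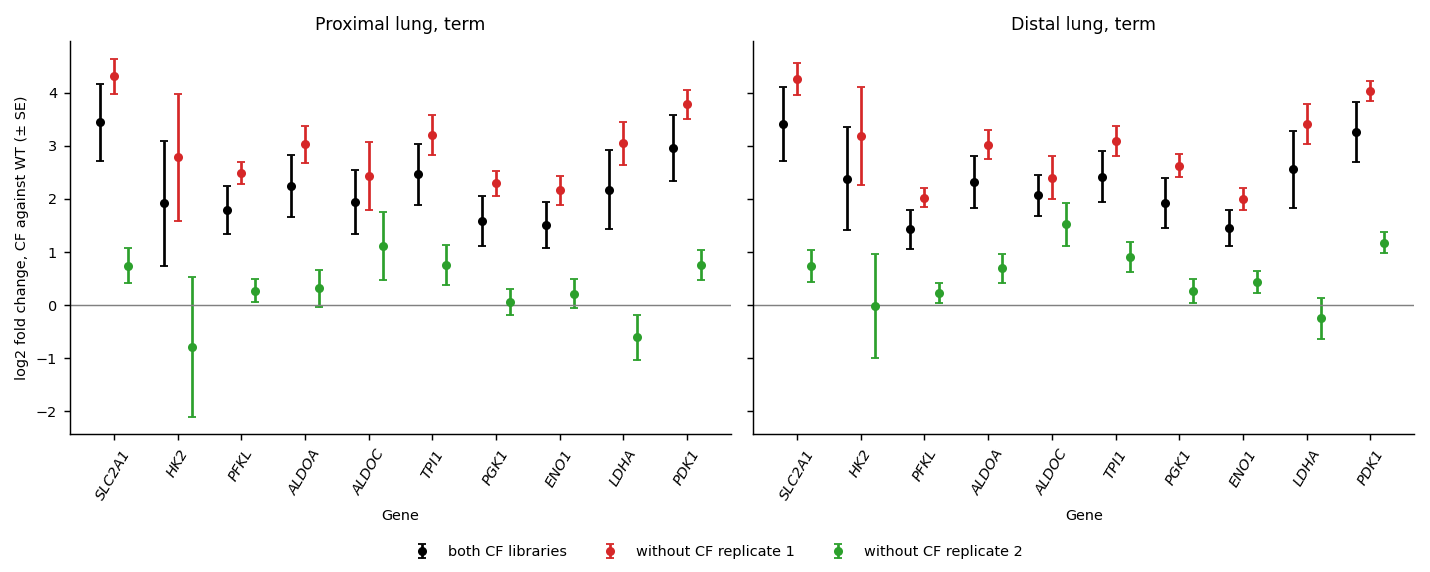
Fitted log2 fold change of CFTR-/- (CF) against WT lung at term for the 10 genes, with its standard error as bars, from all libraries (black), without lamb 1 (red, replicate 1) and without lamb 2 (green, replicate 2), in proximal and distal lung. Every estimate without lamb 1 lies above the one without lamb 2, and without lamb 2 those of LDHA and HK2 lie below 0.

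In counts, 0 of the 10 genes were DEGs between genotypes at term in either region by edgeR (0.339% of all genes in proximal and 1.25% in distal lung), although 9 of them had an unadjusted p under 0.05 in proximal (19.9% of all genes) and 10 in distal lung (30.6%). DESeq2 called 3 DEGs in proximal (3.88% of all genes) and 7 in distal lung (6.8%), and at the looser limit it gave 9 (5.2% of all genes higher) and 10 (9%). At the looser limit 5 were higher in proximal lung, namely SLC2A1, PFKL, ALDOA, TPI1 and PDK1 (2.6% of all genes), and 9 in distal lung, all but HK2 (7.16%). Without lamb 2 none passed in proximal (0.792% of all genes; smallest adjusted p 0.218) and 2, ALDOC and PDK1, in distal lung (3.25%). Without lamb 1, 8 were DEGs in each region (0.791% and 3.77% of all genes), all but HK2 and ALDOC, and 9 passed the looser limit in proximal (3.47%) and 10 in distal lung (8.39%). These refits compare 1 CFTR-/- term library with WT and take the spread from the other groups. WT libraries mattered too. The proximal count of 5 was 0 without WT proximal term replicate 1 or 2, and the distal count of 9 was 2 without WT distal term replicate 1. The median log2 difference of the 10 was 2.06 (proximal) and 2.35 (distal), beside -0.03 and 0 over all genes.

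Groups that do not overlap are a weaker criterion. Both CFTR-/- lambs were above both WT lambs for 8 of the 10 genes in each region, all but HK2 and LDHA, against 24.7% of all genes in proximal and 23.3% in distal lung. Taken alone, lamb 1 was above both WT lambs for 8 of 10 in each region (38.4% of all genes with a WT mean of 1 CPM or more in proximal and 35.1% in distal lung). In lamb 2 all 10 genes were above the other 38 libraries in both of its libraries, against 7.48% of all 20779 genes tested. The next highest library was at 74.0 CPM for SLC2A1, 343 for LDHA, 507 for ALDOA and 37.2 for PDK1. The 10 genes were chosen with earlier results of these data known. The shares of all genes beside their term counts are therefore no independent test of them.

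**Figure D4:**
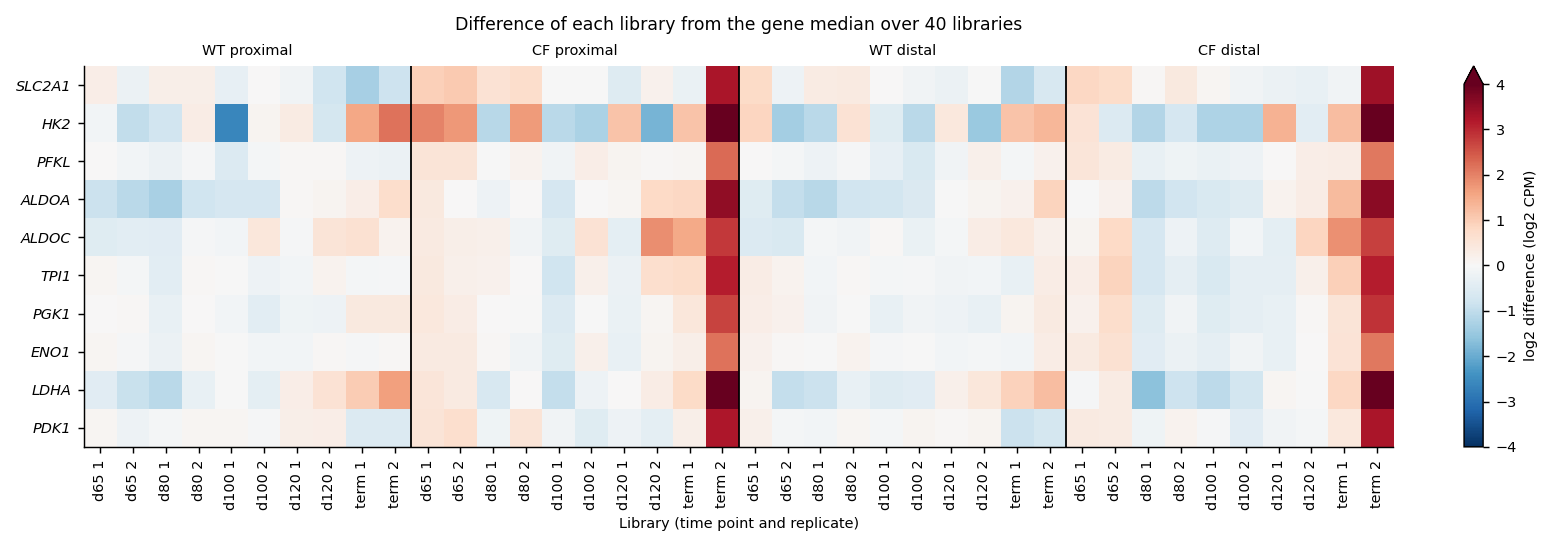
Heat map of the 10 genes (rows) over the 40 libraries (columns, by time point and replicate within genotype and region), coloured by log2 CPM minus the gene's median over all libraries. Values above 4 share the top colour. The columns of CFTR-/- term lamb 2 (CF, term 2) are the only ones at 2 or more in all 10 rows.

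The same lambs differed in other measures, whose part in the result was not tested. The TMM factor was between 0.751 and 0.773 in lamb 2, between 0.806 and 0.869 in lamb 1 and between 0.899 and 0.955 in the WT term lambs. Alveolar type 2 markers summed to between 8723 and 12299 CPM in lamb 2, between 30952 and 35414 in lamb 1 and between 18186 and 28523 in WT. Macrophage markers summed to between 415 and 495 CPM in lamb 2, between 301 and 491 in lamb 1 and between 1027 and 2134 in WT. Neutrophil markers summed to between 91.0 and 142 CPM in lamb 2, between 12.3 and 15.1 in lamb 1 and between 45.6 and 209 in WT. Cell cycle genes, 16 in the list, summed to between 61.6 and 85.7 CPM in lamb 2, between 67.7 and 70.5 in lamb 1 and between 239 and 519 in WT. Skeletal muscle markers summed to between 32.7 and 34.8 CPM in lamb 2, between 33.2 and 35.7 in lamb 1 and between 6.39 and 9.96 in WT. Erythroid markers were between 19.8 and 22.8 CPM in lamb 2 between 20.1 and 21.2 in lamb 1 and between 9.38 and 12.9 in WT. Alveolar type 1 markers summed to between 1384 and 1399 CPM in lamb 2, between 1849 and 2528 in lamb 1 and between 3348 and 3964 in WT. Epithelial markers summed to between 1861 and 1901.6 CPM in lamb 2, between 888 and 1234 in lamb 1 and between 1840 and 2196 in WT. Smooth muscle markers summed to between 386 and 411 CPM in lamb 2, between 583 and 655 in lamb 1 and between 621 and 1055 in WT, and endothelial markers to between 2006 and 2046, between 1875 and 2302 and between 1289 and 1948.

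The change from day 120 to term was compared between genotypes directly. In distal lung it was larger in CFTR-/- lung for SLC2A1 by 3.53 on the log2 scale (SE 0.93, adjusted p 0.0304), for PDK1 by 3.43 (SE 0.76, adjusted p 0.0143), for TPI1 by 2.33 (SE 0.65, adjusted p 0.0393) and for ALDOC by 1.81 (SE 0.53, adjusted p 0.0448). These 4 of 10 compare with 4.21% of all genes. DESeq2 gave 8 at the looser limit (6.9% of all genes) and 2 DEGs (3.98%). The edgeR count was lower when the WT distal day 100 libraries, which share an animal label, were summed. Leaving out single libraries changed the distal count: it was 9 without CFTR-/- term lamb 1 (6.9% of all genes), 1 without lamb 2 (1.72%), 0 without WT distal term replicate 1, 2 without WT distal term replicate 2, and 1 without WT distal day 120 replicate 1 or 2 or CFTR-/- distal day 120 replicate 1. In proximal lung 0 of the 10 passed (edgeR; 0.585% of all genes; 8 of the 10 had an unadjusted p under 0.05, against 15.7% of all genes; DESeq2 gave 2, against 2.36% of all genes), with PDK1 nearest at 3.50 (adjusted p 0.0517). That count was 1 without CFTR-/- proximal day 120 replicate 1 or 2. Without lamb 1 the proximal count was 8 (1.99% of all genes), of which 3 were DEGs (0.259%), and 8 were DEGs in distal lung (2.3%). None of the 10 was a DEG in this comparison in either region, against 0.0442% and 0.189% of all genes, and in distal lung 9 had an unadjusted p under 0.05 (25.9% of all genes).

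Within CFTR-/- distal lung 8 of the 10 genes rose from day 120 to term at the looser limit, against 11.5% of all genes, and none was a DEG (0.338% of all genes; DESeq2 called 7, against 10.6%). LDHA was at 116 and 110 CPM at day 120 and 198 and 2518 at term, a log2 difference of 3.57. SLC2A1 was at 30.8 and 29.5 CPM at day 120 and 32.7 and 377 at term, a log2 difference of 2.75. Lamb 1 was at 1.09 times the day 120 mean for SLC2A1, where lamb 2 was at 12.5 times. For other genes lamb 1 was higher too, at 2.76 times for ALDOC (lamb 2 at 5.13), 2.08 for ALDOA, 2.00 for TPI1 and 1.75 for LDHA. Both lambs were above both day 120 libraries for 9 of the 10 genes, all but HK2, against 27% of all genes. HK2 and PFKL were the 2 that did not pass (adjusted p 0.0606 and 0.0608). The count was 1 without lamb 2 (2.94% of all genes), 10 without lamb 1 (12.8%), 0 without CFTR-/- distal day 120 replicate 1 and 4 without CFTR-/- distal day 120 replicate 2. Markers moved over this step too, and their part was not tested. Macrophage markers in CFTR-/- distal lung summed to 90.3 and 126 CPM at day 120 and 491 and 495 at term, cell cycle genes to 540 and 422 and then 67.7 and 85.7, and smooth muscle markers to 1636 and 1623 and then 583 and 411. In CFTR-/- proximal lung all 10 log2 differences were above 0 and none passed the looser limit (edgeR; 0.0762% of all genes; 9 had an unadjusted p under 0.05, against 15.1% of all genes), while DESeq2 gave 7, against 2.7%. Without lamb 1 the proximal count by edgeR was 7, against 0.779% of all genes.

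No difference between proximal and distal lung passed the looser limit in the 10 genes. In WT lung, averaged over the 5 times, distal minus proximal was between -0.10 and 0.20 on the log2 scale, and at term between -0.65, for HK2, and 0.28. In CFTR-/- lung the average over the 5 times was between -0.69 and -0.03, and at term between -0.21 and 0.16. None of the 10 passed the looser limit in these 4 comparisons or in the difference between regions in CFTR-/- against WT at term, and none had an unadjusted p under 0.05 by edgeR. These fits had 1 mean per group and no term for the animal, so the spread between animals stayed in the error. With the animal as a block none of the 10 passed either. Region gave few calls in any gene in the fits without that block. The share of all genes past the looser limit was 0.016% in the WT average, 0.00534% in WT lung at term, 0.00497% in the CFTR-/- average and 0% in the other comparisons. DESeq2 called none of the 10 either. The smallest adjusted p for the 10 was 0.824.

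Of the other genes of glucose metabolism, taken from lists, some stood with the 10 at term. SLC2A3 (GLUT3), another glucose carrier, was at 47.8 and 49.3 CPM in WT proximal lung, 240 in lamb 1 and 3709 in lamb 2. In distal lung SLC2A3 was at 38.3 and 41.8 CPM in WT, 206 in lamb 1 and 3784 in lamb 2. Both CFTR-/- lambs were far above WT. SLC2A3 was higher by 5.35 in proximal (SE 0.88, adjusted p 0.00356) and 5.66 in distal lung (SE 0.89, adjusted p 0.00111), and without lamb 2 by 2.28 (adjusted p 0.00768) and 2.36 (adjusted p 0.00131). GAPDH, the glycolytic enzyme between TPI1 and PGK1, was at 409 and 477 CPM in WT proximal lung, 675 in lamb 1 and 5272 in lamb 2, a log2 difference of 2.75 (SE 0.67, adjusted p 0.0277). SLC16A3 (MCT4), which exports lactate, was at 8.17 and 6.55 CPM in WT proximal lung, 9.11 in lamb 1 and 144 in lamb 2, a log2 difference of 3.38 (SE 0.82, adjusted p 0.0264). In distal lung GAPDH and SLC16A3 were higher by 2.83 (adjusted p 0.00543) and 3.55 (adjusted p 0.00891). Without lamb 2 neither passed: GAPDH was at 0.58 in proximal (adjusted p 0.6) and 0.82 in distal lung (adjusted p 0.118), and SLC16A3 at 0.29 (adjusted p 0.83) and 0.46 (adjusted p 0.551). Of the 17 other glycolytic enzymes with a WT mean of 1 CPM or more, 6 were at least 2 times as high in lamb 2 as the WT mean in each region (35.3%), against the 8.72% and 9.26% of all genes given above. GPI, which makes fructose 6-phosphate, was at 817 and 774 CPM in the proximal and distal libraries of lamb 2 and at most 184 in the other 38. PGAM1, the phosphoglycerate mutase, was at 219 and 180 CPM (at most 54.8 in the others), HK1 at 283 and 227 (at most 110.1) and PFKFB3, which makes an activator of phosphofructokinase, at 29.0 and 19.8 (at most 9.94). With GAPDH these are the 5 enzymes of that list above all other libraries in both libraries of lamb 2. In lamb 1 these 4 were between 0.378 and 1.11 times the WT mean. With both lambs in the fit, only GPI in distal lung passed the looser limit (1.83, edgeR adjusted p 0.0191). There lamb 1 was at 145 CPM, between the WT values of 110 and 153. LDHB was not among the enzymes raised in lamb 2, at 263 and 260 CPM in WT proximal lung, 344 in lamb 1 and 305 in lamb 2 (adjusted p 0.702).

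Of all genes tested at term 2.6% were higher and 3.48% lower in proximal and 7.16% and 7.23% in distal lung at the looser limit. By list, 3 of 17 glucose and lactate transport genes tested were higher at term at the looser limit in each region, the third being SLC2A4, and 1 in proximal and 2 in distal lung were lower, SLC16A7 in both. Of 22 other glycolytic enzymes 1, GAPDH, was higher and 2 lower in proximal lung, and 2, GAPDH and GPI, higher and 2 lower in distal lung. HK3, the hexokinase of white blood cells, and TIGAR, which restrains glycolysis, were the lower pair in both. Of 12 genes for the entry of pyruvate into mitochondria none was higher, and 1, DLD, was lower in proximal and 2, DLD and PDHA1, in distal lung. Of 22 gluconeogenesis and glycogen genes 1 was higher and 1 lower in proximal and 4 higher and 3 lower in distal lung, with PPP1R3C, which directs glycogen synthesis, higher by 1.99 in proximal and 1.73 in distal lung. The genes named in this paragraph beyond SLC2A3, SLC16A3 and GAPDH, and GPI, PGAM1, HK1 and PFKFB3 above, were chosen after their values were seen. Without lamb 2, an alternative chosen after seeing the data, the counts of higher genes in proximal and distal lung were 1 and 2 for transport, 0 and 0 for the other glycolytic enzymes, 0 and 0 for pyruvate entry, and 1 and 1 for gluconeogenesis and glycogen. The counts of lower genes were then 1 and 1 for transport (SLC16A7), 2 and 2 for the other glycolytic enzymes (HK3 and TIGAR), 0 and 2 for pyruvate entry (DLD and PDK4), and 0 and 2 for gluconeogenesis and glycogen (FBP2 and GYG1). Of all genes 0.792% were higher and 1.07% lower in proximal and 3.25% and 3.18% in distal lung without lamb 2. The median ratio of lamb 2 to the WT mean was between 0.629 and 1.10 for these 4 lists in both regions.

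Genes of the HIF pathway, which the cell uses to respond to low oxygen, were counted in the same way. Of 24 tested 7 were higher and 1 lower in proximal lung and 10 were higher and 2 lower in distal lung at the looser limit. The shares of all genes were 2.6% and 3.48% in proximal and 7.16% and 7.23% in distal lung. Without lamb 2, chosen after seeing the data, 2 were higher and none lower in proximal (0.792% and 1.07% of all genes) and 5 higher and 2 lower in distal lung (3.25% and 3.18%). The median ratio of lamb 2 to the WT mean was 2.75 and 2.64. EGLN3, a prolyl hydroxylase that is itself a HIF target, was at 9.37 and 8.82 CPM in WT proximal lung, 63.5 in lamb 1 and 635 in lamb 2. EGLN3 was higher by 5.26 in proximal (SE 0.85, adjusted p 0.00325) and 5.17 in distal lung (SE 0.88, adjusted p 0.00175). Lamb 1 lay clearly above WT in this gene, and without lamb 2 the difference was 2.78 (adjusted p 0.0197) and 2.65 (adjusted p 0.0202). ANKRD37, another HIF target, was at 1.04 and 1.69 CPM in WT distal lung, 17.8 in lamb 1 and 215 in lamb 2, and was the 1 DEG of all these lists, at 6.43 (SE 0.94, adjusted p 0.000668). Without lamb 2 ANKRD37 was higher by 3.70 there (adjusted p 0.00383) and was no longer a DEG. Of the HIF alpha subunits none passed in either region. HIF1A was at 102 and 100 CPM in WT proximal lung, 68.3 in lamb 1 and 242 in lamb 2 (adjusted p 0.552). EPAS1 (HIF-2 alpha) was at 1379 and 1242 CPM in WT, 649 in lamb 1 and 1248 in lamb 2 (adjusted p 0.664). HIF3A was at 5.71 and 15.7 CPM in WT proximal lung, 21.6 in lamb 1 and 71.9 in lamb 2 (adjusted p 0.323), and at 9.94 and 7.87 in WT distal lung, 20.7 in lamb 1 and 40.6 in lamb 2 (adjusted p 0.135). Both CFTR-/- lambs were above both WT lambs in HIF3A. ARNT2, a partner of the alpha subunits, was at 6.75 in both WT proximal libraries, 1.86 in lamb 1 and 2.92 in lamb 2 (adjusted p 0.394). In distal lung ARNT2 was at 8.26 and 4.12 CPM in WT, 1.29 in lamb 1 and 1.36 in lamb 2, lower by a log2 difference of -2.19 (adjusted p 0.0245). That call was lost without lamb 1 (adjusted p 0.0764), lamb 2 (adjusted p 0.128) or WT distal term replicate 1 (adjusted p 0.155). HIF3A and ARNT2 were chosen after their values were seen. VEGFA, a HIF target that drives vessel growth, was at 168 and 123 CPM in WT, 128 in lamb 1 and 453 in lamb 2 (adjusted p 0.368).

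**Figure D5:**
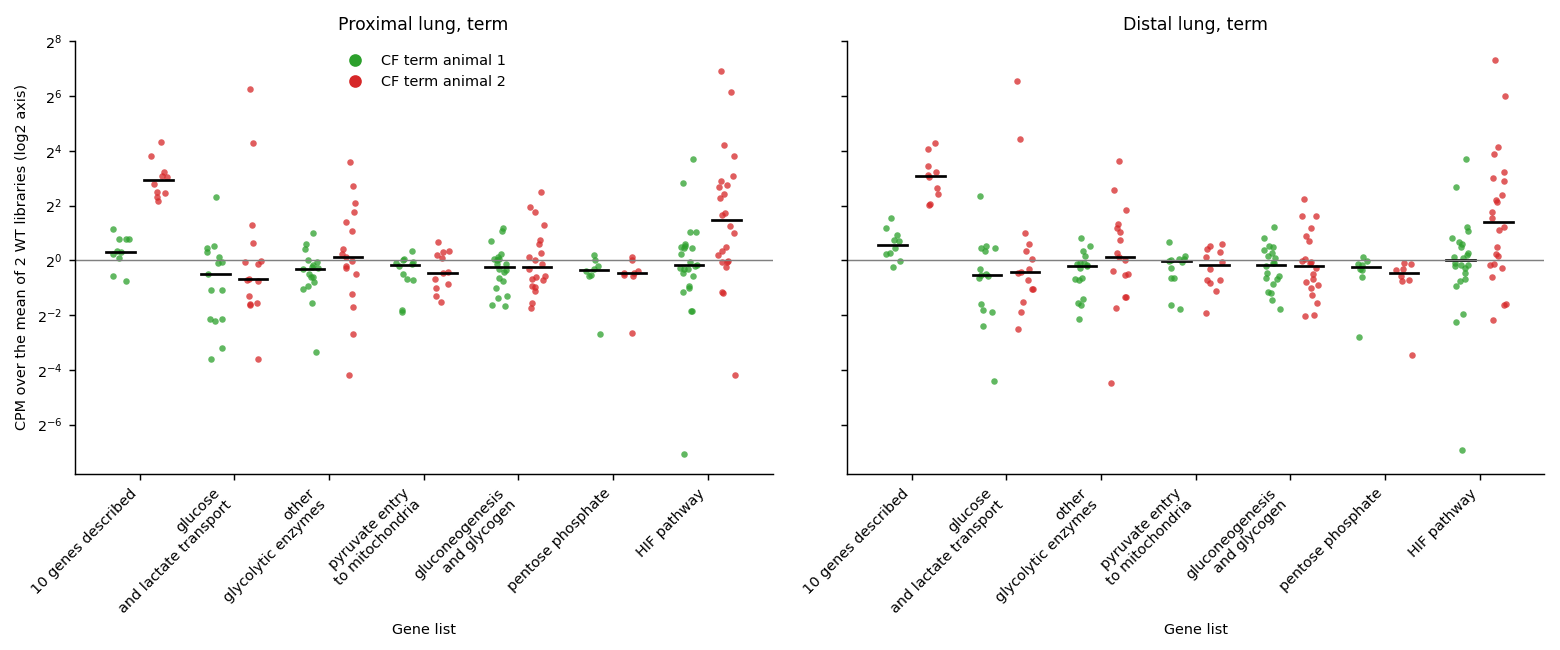
Ratio of CFTR-/- (CF) term lamb 1 (green) and lamb 2 (red) to the mean of the WT term lambs (log2 axis) for each gene of each list with a WT mean of 1 CPM or more, in proximal and distal lung. Points are genes and bars mark medians: in lamb 2 the 10 genes all lie above 1 and the HIF list has a median of 2.75 in proximal and 2.64 in distal lung, while the other medians lie between 0.629 and 1.10.

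In WT development none of the 10 was a DEG, while other genes of the lists were. From day 120 to term PDK4, a pyruvate dehydrogenase kinase raised by fasting and steroids, rose by 4.80 on the log2 scale in proximal (adjusted p 5.28e-05) and 4.36 in distal lung (adjusted p 7.21e-05), over the interval in which PDK1 fell. SLC2A3 fell by 1.66 in proximal lung (adjusted p 0.00021) and SLC16A7 rose by 1.70 (adjusted p 0.000168). PPP1R3C fell by 2.59 in proximal and 2.45 in distal lung. EPAS1 rose by 1.95 in proximal and 1.67 in distal lung, and ADM, a vessel-widening peptide hormone, by 2.66 and 2.53. HK3 rose by 4.55 in proximal lung (adjusted p 0.000621) and P4HA2, a HIF target that modifies collagen, by 1.25 in distal lung (adjusted p 0.000271). Without WT day 120 replicate 1 of the region, the adjusted p of each of these was above 0.001 and the direction was kept. From day 65 to day 120 EPAS1, ADM and FBP1, an enzyme of gluconeogenesis, were DEGs in both regions, all rising, and VEGFA and INSIG2 rose as DEGs in proximal lung.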

How the data were processed

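Polyadenylated RNA was sequenced as paired 100 base reads, 2 libraries for each of 20 groups. The authors aligned reads to Oar_v4.0 with STAR and counted them over exons with featureCounts 1.6.3. The deposited values are raw counts per gene, and the strand setting was not given in the sources used here. Of counts from 1 to 20, between 69.2% and 85.8% were even in the 40 libraries. Both reads of a pair may therefore have been counted. A further table repeated all 20 CFTR-/- columns and was not used. Counts were filtered with filterByExpr (count minimum 10, total minimum 15), scaled by TMM and tested with edgeR 4.0.16 (quasi-likelihood, legacy mode, R 4.3.3) with 1 mean per condition. Each region was fitted for genotype, each genotype and region for time, each genotype for region, and all 40 libraries for the difference between regions at term. Code was tested on simulated data. CPM were computed with TMM factors over 40 libraries, and log2 CPM with a prior count of 2. Alternatives included DESeq2 1.42.0, RLE scaling, no filter and a replicate block.

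The members and the lists were chosen with earlier results of these data known. All 10 genes are named in every comparison. Of the other pathway genes, those named are DEGs, at most 6 per list, and GAPDH, LDHB, SLC16A3, SLC2A3, HIF1A, EPAS1, EGLN3 and VEGFA; others are named as such. PKM is not analysed here. The deposited counts carry no sequence, so none is shown. Samples were grouped by title, genotype and age, and columns were matched to samples by name. Regions of 1 animal share an animal label and so are paired: deviations from group means of these 10 pairs of groups correlated between -0.474 and 0.853, with 7 of 10 above 0.1.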

Additional observations from a re-analysis of the deposited data

Results flagged for a closer look

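The change from day 120 to term in distal lung differed between genotypes, by the test of that difference itself (edgeR's quasi-likelihood test, Benjamini-Hochberg adjustment over all genes), for 4 of the 10 genes, against 4.21% of all genes. The difference was 3.53 on the log2 scale for SLC2A1 (SE 0.93, adjusted p 0.0304), 3.43 for PDK1 (SE 0.76, adjusted p 0.0143), 2.33 for TPI1 (SE 0.65, adjusted p 0.0393) and 1.81 for ALDOC (SE 0.53, adjusted p 0.0448). With CFTR-/- term lamb 2 left out, 1 of the 10 passed, with lamb 1 left out, 9 passed, and without WT distal term replicate 1 none passed. Fewer than 4 passed when the WT distal day 100 libraries, which share an animal label, were summed. Groups of 2 libraries are too small to test single libraries as outliers.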

How the results depend on the processing

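With 2 libraries a group the calls rest on few libraries, and the cause of the changes listed here was not tested unless the setting itself gives it. Counts are of the 10 genes. With DESeq2 the counts at the study's limits were 3 and 7 at term between genotypes in proximal and distal lung, 2 for the genotype difference in the change to term in distal lung, 1 each for WT proximal term, WT distal term and WT proximal day 120 against day 65, and 7 for CFTR-/- distal term. At the looser limit they were 9 for proximal term, 2 and 8 for the genotype difference in proximal and distal lung, 1 for WT proximal day 120 against day 100, 2 for WT distal term, 2 for WT distal day 120 against day 65 and 7 for CFTR-/- proximal term. Under the adjusted p limit of 0.05, counts of 0 became 5 and 9 (genotypes at term, proximal and distal), 4 (genotype difference, distal), 3 and 1 (WT term against day 120), 2 and 1 (WT day 120 against day 65) and 8 (CFTR-/- distal term). With no filter the proximal genotype difference gave 1 and WT distal day 120 against day 65 gave 0. Bias-adjusted quasi-likelihood gave 1 for the proximal genotype difference, RLE scaling 1 for WT proximal term, and summing the WT day 100 libraries 2 for the distal genotype difference. Thinning to equal depth moved none of 28 counts. It was run only for the fits of each region, which compare genotypes. The time courses were not thinned.

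With 1 library left out, counts at the study's limits ran from 0 to 8 for genotypes at term in each region, 0 to 3 and 0 to 8 for the proximal and distal genotype difference, and 0 to 6 for CFTR-/- distal term. At the looser limit they ran from 0 to 9 and 2 to 10 for genotypes at term, 0 to 8 and 0 to 9 for the genotype difference, 0 to 1 at proximal day 120, 0 to 2 for the proximal prenatal average, 1 to 3 for WT term against day 120 in each region, 1 to 1 and 0 to 1 for WT day 120 against day 65, and 0 to 7 and 0 to 10 for CFTR-/- term against day 120. Of 374 such counts 337 stayed within 1.5 times the reported one. A count of 0 that stayed at 0 was scored as unchanged, and many were of that kind. The difference in LDHA in distal lung at term ranged from -0.25 without lamb 2, a reversed direction, to 3.41 without lamb 1. Fits across regions were refitted without single term libraries and, chosen after seeing the data, without both libraries of lamb 2; other left-out refits of them were not run.

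With the replicate number as a block, the pairing of regions of 1 animal included, WT distal day 120 against day 65 gave 0, and 77 of 78 counts stayed. Across genotypes and times the numbers name different animals. Same-numbered libraries correlated between -0.251 and 0.403 across genotypes and between -0.745 and 0.833 across times, so the numbers do not pair them.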

Other observations

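Genes outside the lists were ranked by the correlation of their log2 CPM with the mean scaled profile of the 10 genes over the 40 libraries, among the 13529 genes whose log2 CPM averaged at least 1. The 8 nearest were CIART (r 0.953), LOC101113211 (0.937), APOLD1 (0.931), DDIT4 (0.919), NFIL3 (0.916), IER3 (0.911), LOC101116495 (0.894) and JCHAIN (0.893). The libraries share animals, and these values rest on CFTR-/- term lamb 2. DDIT4, a stress-induced inhibitor of mTOR, was at 2330 and 2271 CPM in its libraries and at 162 in the next highest. Over the 38 other libraries, an alternative chosen after seeing the data, the nearest were ADORA2B (r 0.818), DTX1 (0.811), HS3ST1 (0.808), LOC101121452 (0.779), TIMP1 (0.736), SH3BGR (0.734), LOC101113211 (0.729) and MAPRE3 (0.728), of which LOC101113211 was in both sets.

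Among the 10 genes themselves the 45 pairwise correlations of log2 CPM had a median of 0.828 over 40 libraries, with a lowest value of 0.506 for SLC2A1 with HK2 and a highest of 0.982 for TPI1 with ENO1. Over the 38 libraries without lamb 2 the median was 0.497, the lowest was -0.368 for SLC2A1 with LDHA, and the highest was 0.917, again for TPI1 with ENO1. The mean log2 deviation of the 10 genes from their medians was 3.23 and 3.22 in the proximal and distal libraries of lamb 2, 0.571 and 0.775 in those of lamb 1, and between -0.657 and 0.637 in the other 36.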
